A study of Rattus norvegicus with 30 samples.

Results

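The comparison described here is the second day of exposure to the higher dose of dioctyl phthalate, as 48 h against 24 h at 1000 µM in primary rat hepatocytes. It was made up of the 10 arrays whose titles give 1000 µM, 5 at each time, out of 30 arrays in the series. All 30 wells held purchased, frozen hepatocytes of male Sprague Dawley rats, plated on collagen under Matrigel and dosed on day 3 of culture. The 6 groups of 5 wells were 1% DMSO vehicle, 250 µM and 1000 µM dioctyl phthalate, each at 24 h and at 48 h, and the dosing solutions were made in 1% DMSO. Each well was a separate culture, but the labels do not say how many rats or vials the cells came from, so p-values measure the spread between wells. No vehicle array entered the comparison of times at 1000 µM. A change between times in these cultures therefore holds another day of culture as well as another day of exposure, and the vehicle and 250 µM arrays are used below only to set each change beside the same day without the compound or at the lower dose.

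Dioctyl phthalate is a phthalate ester used as a plasticizer. Several phthalates act in rodent liver as peroxisome proliferators: their metabolites activate PPARα, a nuclear receptor that switches on genes of fatty acid uptake, omega-oxidation and beta-oxidation. A separate set of factors, the SREBPs, drives genes of fatty acid and cholesterol synthesis. Hepatocytes also make most plasma proteins and many cytochrome P450 enzymes, and in culture they gradually lose part of this programme.

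RNA was measured on arrays as 1 signal per probe set, scaled by the authors, and all levels and changes below are log2 values of signal plus 1. Genes were tested with limma on the 10 arrays, a gene is called changed at a Benjamini-Hochberg adjusted p under 0.05 over all 10528 tested genes, and each change is 48 h minus 24 h ± standard error for 5 arrays per time. Correlations between arrays over the tested genes ran from 0.978 to 0.986 within a time and from 0.971 to 0.979 between times. The hepatocyte markers were high on all 10 arrays: 7 of 8 were measured (among them Alb, Apoa1, Ttr and Hnf4a), and their summed signal spanned 275600 to 381600 at 24 h and 306500 to 362500 at 48 h, ranges that overlap. The 3′ to 5′ ratio of beta-actin, a measure of RNA integrity, was 1.14 ± 0.096 (SD, n = 5) on the log2 scale at 24 h and 1.30 ± 0.138 at 48 h, a difference of 0.16 (exact permutation test, two-sided, p = 0.0635, adjusted over 3 measures 0.19, with 0.00794 the smallest p possible). Without 24 h array 3 the difference was 0.20 (exact permutation test, adjusted p = 0.0476). With that ratio as a covariate, 853 genes were called, 827 of them among the 2054 called without it, and list counts with the covariate (chosen after seeing the data) are given below where they moved by over 1.5 times.

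From 24 to 48 h at 1000 µM, 2054 of the 10528 genes changed (19.5%): 1137 rose (10.8%) and 917 fell (8.71%), and the median change over all genes was 0.01. Most changes were small. Only 67 genes passed the test with at least a 2-fold change, 30 upward and 37 downward. For 1485 genes (14.1%) the 5 arrays of one time lay entirely above the 5 of the other, 793 higher at 48 h (7.53%) and 692 lower (6.57%). With array medians centred, 668 genes rose and 468 fell. The largest rises held lipid genes, led by the desaturases Scd2 and Fads1 and by Pnpla3. The largest falls held an interleukin-1 antagonist and decoy receptor (Il1rn and Il1r2), secreted serpins, and the P450 enzymes Cyp2c13 and Cyp1a2.

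**Figure D1:**
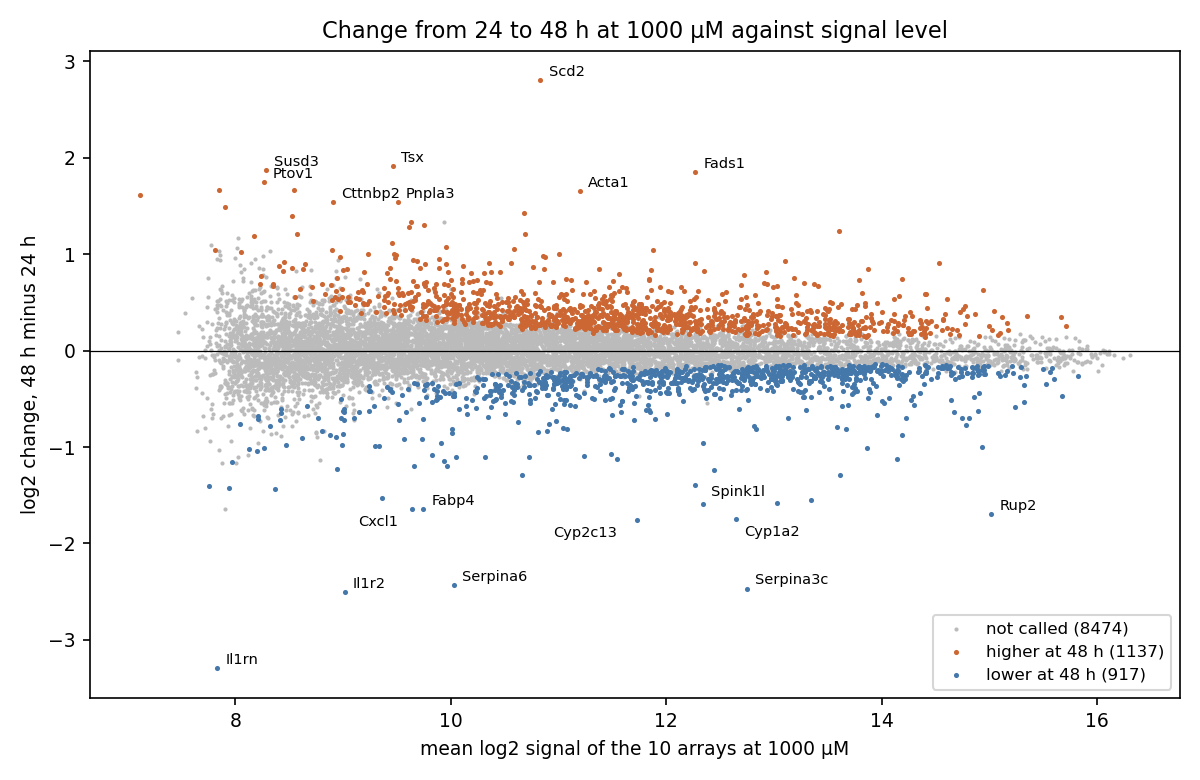
Log2 change from 24 to 48 h at 1000 µM (vertical) against the mean log2 signal of the 10 arrays (horizontal), 1 point per gene; 1137 genes called higher are orange, 917 called lower are blue and those not called are grey. Scd2 (2.81) stands highest and Il1rn (-3.30) lowest.

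Genes of fatty acid and triglyceride synthesis were mostly higher on the second day. Of 23 tested members 14 rose (60.9%, against 10.8% of all genes), 1 fell (4.35%, against 8.71%) and 8 did not pass. The median change was 0.39 against 0.01 over all genes. The actin covariate left 11 rises and 0 falls. Scd2, a stearoyl-CoA desaturase that makes monounsaturated fatty acids, rose the most of all genes the text names. Scd2 read 9.66, 9.46, 9.15, 9.37 and 9.49 on the 24 h arrays and 12.33, 12.17, 12.09, 12.44 and 12.15 on the 48 h arrays, each time in the order of deposit, which pairs no wells. The 2 sets of arrays are far apart, and the rise was 2.81 ± 0.10 (limma adjusted p = 2.08e-11), a 6.99-fold change. A second, dimmer probe set for Scd2 moved the same way by less and did not pass (0.64 ± 0.23, limma adjusted p = 0.0614). Fads1 encodes the delta-5 desaturase of polyunsaturated fatty acid synthesis. Its arrays read 11.41, 11.38, 11.32, 11.19 and 11.39 at 24 h and 13.32, 13.20, 13.15, 13.05 and 13.25 at 48 h, with no overlap and a rise of 1.85 ± 0.06 (limma adjusted p = 1.96e-11). Fasn, the fatty acid synthase, read 11.47, 11.38, 11.35, 11.31 and 11.26 at 24 h and 12.53, 12.41, 12.24, 12.31 and 12.49 at 48 h. It also separated the times, with a rise of 1.04 ± 0.07 (limma adjusted p = 2.93e-08). Pnpla3, a lipid droplet protein with lipase activity, read 8.82, 9.43, 8.75, 8.45 and 8.22 at 24 h and 10.02, 10.27, 10.45, 10.28 and 10.39 at 48 h. Its 24 h arrays were spread widely but stayed below all 48 h arrays, and the rise was 1.54 ± 0.19 (limma adjusted p = 2.91e-05). The other probe sets of Pnpla3 gave 2.29 ± 0.48 (limma adjusted p = 0.00367) and 0.15 ± 0.26 (limma adjusted p = 0.749), so they did not measure 1 common change.

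Cholesterol synthesis and uptake was the list with the highest share of called members among those with 4 or more tested members. Here 16 of 20 rose (80%, against 10.8% of all genes), 0 fell (against 8.71%) and 4 did not pass, with a median of 0.44. Cyp51 and Dhcr7 carry out late steps of sterol synthesis and Sqle, squalene epoxidase, an earlier one. Dhcr7 read 13.46, 13.36, 13.41, 13.46 and 13.40 at 24 h and 14.29, 14.14, 14.08, 14.05 and 14.20 at 48 h. Sqle read 12.56, 12.64, 12.60, 12.59 and 12.56 at 24 h and 13.23, 13.47, 13.22, 13.32 and 13.17 at 48 h. Neither gene's arrays overlapped, and the rises were 0.74 ± 0.05 for Dhcr7 (limma adjusted p = 1.06e-07) and 0.69 ± 0.06 for Sqle (limma adjusted p = 6.11e-07). Cyp51 rose by 0.75 ± 0.07 (limma adjusted p = 1.04e-06), its 24 h arrays between 12.68 and 12.94 and its 48 h arrays between 13.43 and 13.71. Both synthesis lists rose in the cultures without the compound as well: over the same members the median change in vehicle was 0.33 for fatty acid synthesis and 0.31 for cholesterol, and at 250 µM it was 0.29 and 0.53. Scd2 rose by 2.54 ± 0.11 in vehicle and by 2.58 ± 0.11 at 250 µM, and Fads1 by 1.11 ± 0.13 and 1.87 ± 0.13. The change of Fads1 at 1000 µM exceeded that in vehicle by 0.74 ± 0.18 (limma adjusted p = 0.043, 30 arrays), a call lost with array medians centred (0.67); for Scd2 the difference of 0.26 ± 0.16 did not pass (limma adjusted p = 0.533).

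The promoters of the 3 lipid synthesis genes among the 12 largest rises are shown because these genes moved together, and that of Il1rn because it fell the most. They come from RefSeq, build GRCr8, from 250 bases before to 50 after the gene's start, and capitals mark a match on either strand to 1 of 4 short motifs: AGGTCA (a nuclear receptor half-site), CACGTG (the E-box of clock and other bHLH factors), CCAAT (bound by NF-Y) or TATAAA (the TATA box).
Scd2 (chr1:253118127-253118426, + strand): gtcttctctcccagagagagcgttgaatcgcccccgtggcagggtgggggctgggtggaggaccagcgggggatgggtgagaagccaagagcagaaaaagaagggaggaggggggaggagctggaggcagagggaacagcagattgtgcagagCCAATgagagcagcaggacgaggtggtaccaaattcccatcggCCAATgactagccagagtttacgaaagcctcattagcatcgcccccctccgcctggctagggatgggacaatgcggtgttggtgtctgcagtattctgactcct
Fads1 (chr1:216252442-216252741, + strand): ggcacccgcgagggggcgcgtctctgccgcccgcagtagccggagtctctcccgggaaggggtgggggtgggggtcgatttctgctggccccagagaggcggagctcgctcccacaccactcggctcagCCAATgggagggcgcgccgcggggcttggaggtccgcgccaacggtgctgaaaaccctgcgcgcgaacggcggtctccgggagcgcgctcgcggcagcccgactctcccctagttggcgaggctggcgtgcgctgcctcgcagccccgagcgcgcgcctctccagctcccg
Pnpla3 (chr7:117173278-117173577, + strand): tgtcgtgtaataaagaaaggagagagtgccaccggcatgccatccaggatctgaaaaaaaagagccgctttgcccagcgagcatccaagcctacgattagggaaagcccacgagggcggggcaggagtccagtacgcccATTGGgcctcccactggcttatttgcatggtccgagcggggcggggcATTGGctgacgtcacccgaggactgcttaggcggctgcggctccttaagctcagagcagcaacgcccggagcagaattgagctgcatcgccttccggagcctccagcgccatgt
Il1rn (chr3:27520072-27520371, + strand): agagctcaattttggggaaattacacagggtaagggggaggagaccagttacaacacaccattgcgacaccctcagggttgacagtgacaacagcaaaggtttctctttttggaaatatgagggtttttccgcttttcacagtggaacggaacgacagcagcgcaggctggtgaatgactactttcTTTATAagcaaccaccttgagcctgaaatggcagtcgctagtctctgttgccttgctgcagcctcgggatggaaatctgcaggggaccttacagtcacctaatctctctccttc
CCAAT was found in Scd2 at 97 and 54 bases upstream, in Fads1 at 121, and on the reverse strand of Pnpla3 at 111 and 64, and TATAAA on the reverse strand of Il1rn at 64. These 4 promoters held no AGGTCA and no CACGTG. Over all 33469 rat promoters listed by the same source, the share with CCAAT was 37.5% on either strand, against 13 of the 16 cholesterol genes with an entry (81.2%), 14 of the 21 fatty acid synthesis genes (66.7%) and 5 of the 12 interferon-induced genes (41.7%). AGGTCA was found in 16.2% of all promoters, in 2 of the 16 cholesterol genes, 0 of the 21 fatty acid synthesis genes and 2 of the 12 interferon-induced genes. CACGTG was found in 6.4% of all promoters and, in the same order of lists, in 2 of 16, 1 of 21 and 1 of 12. TATAAA was found in 14.2% of all promoters and in 0 of 16, 1 of 21 and 1 of 12. A match is a run of letters and no evidence of a factor bound there. RefSeq entries matched 83 of the 105 genes named here.

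Part of the PPARα-regulated lipid handling list was higher on the second day. Of 27 tested members 13 rose (48.1%, against 10.8% of all genes), 1 fell (3.7%, against 8.71%) and 13 did not pass. The median was 0.25, and the actin covariate left 11 rises and 0 falls. Vnn1, the pantetheinase vanin-1, rose by 0.74 ± 0.05 (limma adjusted p = 4.41e-08), from 13.76 to 13.93 on the 24 h arrays to 14.46 to 14.64 on the 48 h arrays. Aqp7, a glycerol channel, read 11.90, 11.91, 11.95, 11.96 and 11.99 at 24 h and 12.61, 12.77, 12.93, 12.71 and 12.79 at 48 h. Fabp1, the liver fatty acid binding protein, read 14.64, 14.63, 14.62, 14.66 and 14.56 at 24 h and 15.31, 15.13, 15.38, 15.20 and 15.24 at 48 h. All 48 h arrays of both genes lay above all 24 h arrays, and the rises were 0.82 ± 0.06 for Aqp7 (limma adjusted p = 1.42e-07) and 0.63 ± 0.05 for Fabp1 (limma adjusted p = 4.36e-07). Cyp4a1, the fatty acid omega-hydroxylase that serves as a classic PPARα target, moved little: it read 15.39, 15.67, 15.57, 15.69 and 15.61 at 24 h and 15.97, 15.67, 15.90, 15.95 and 15.70 at 48 h. The times overlapped between 15.67 and 15.69, and the rise of 0.25 ± 0.07 (limma adjusted p = 0.0193) was not called without 48 h array 1 (0.22) or 48 h array 4 (0.22). Acot1, an acyl-CoA thioesterase with close gene copies that may share probe sequence, rose by 0.54 ± 0.06 (limma adjusted p = 1.22e-05). Pdk4, the kinase that shuts off pyruvate dehydrogenase, was lower by 0.19 (-0.19 ± 0.06, limma adjusted p = 0.0388), a call lost on leaving out 24 h array 2, 4 or 5 or 48 h array 2, 4 or 5 (-0.15 to -0.19); its second probe set gave -0.83 ± 0.08 (limma adjusted p = 2.62e-06).

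In peroxisomal beta-oxidation 6 of 17 tested genes rose (35.3%, against 10.8% of all genes), 2 fell (11.8%, against 8.71%) and 9 did not pass. The median was 0.07. Ehhadh, the bifunctional enzyme of the peroxisomal pathway, had the largest change: it read 14.02, 14.04, 14.10, 14.18 and 14.08 at 24 h and 15.06, 14.90, 14.92, 14.94 and 15.13 at 48 h. The arrays did not overlap, and the rise was 0.91 ± 0.05 (limma adjusted p = 1.63e-08). Slc27a2, a very long chain acyl-CoA synthetase, rose by 0.36 ± 0.05 (limma adjusted p = 6.2e-05), and Acot8, a peroxisomal thioesterase, by 0.32 ± 0.06 (limma adjusted p = 0.000954). On the list of beta-oxidation in mitochondria and ketogenesis, 7 of 21 tested genes rose (33.3%), 1 fell (4.76%) and 13 did not pass. The median was 0.10. Cpt1b, the muscle-type carnitine palmitoyltransferase of the outer mitochondrial membrane, read 11.68, 11.73, 11.83, 11.86 and 11.94 at 24 h and 12.69, 12.79, 12.55, 12.74 and 12.82 at 48 h, a rise of 0.91 ± 0.07 (limma adjusted p = 1.1e-07) with no overlap. Cpt1a, the liver form, was higher by 0.26 ± 0.09 (limma adjusted p = 0.042), with overlapping arrays, and was not called on leaving out 24 h array 2, 3, 4 or 5 or 48 h array 1, 2 or 5 (0.22 to 0.27). Acadm and Acads, the medium and short chain acyl-CoA dehydrogenases, rose by 0.40 ± 0.04 (limma adjusted p = 1.09e-05) and 0.34 ± 0.05 (limma adjusted p = 0.000149). With array medians centred, 3 genes rose and 0 fell in each of the peroxisomal and mitochondrial lists, and with the actin ratio as covariate 4 rose in each and 1 peroxisomal gene fell. The median in vehicle was 0.01 for the peroxisomal, 0.13 for the mitochondrial and 0.21 for the PPARα lipid handling list, and at 250 µM it was 0.20, 0.24 and 0.32.

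**Figure D2:**
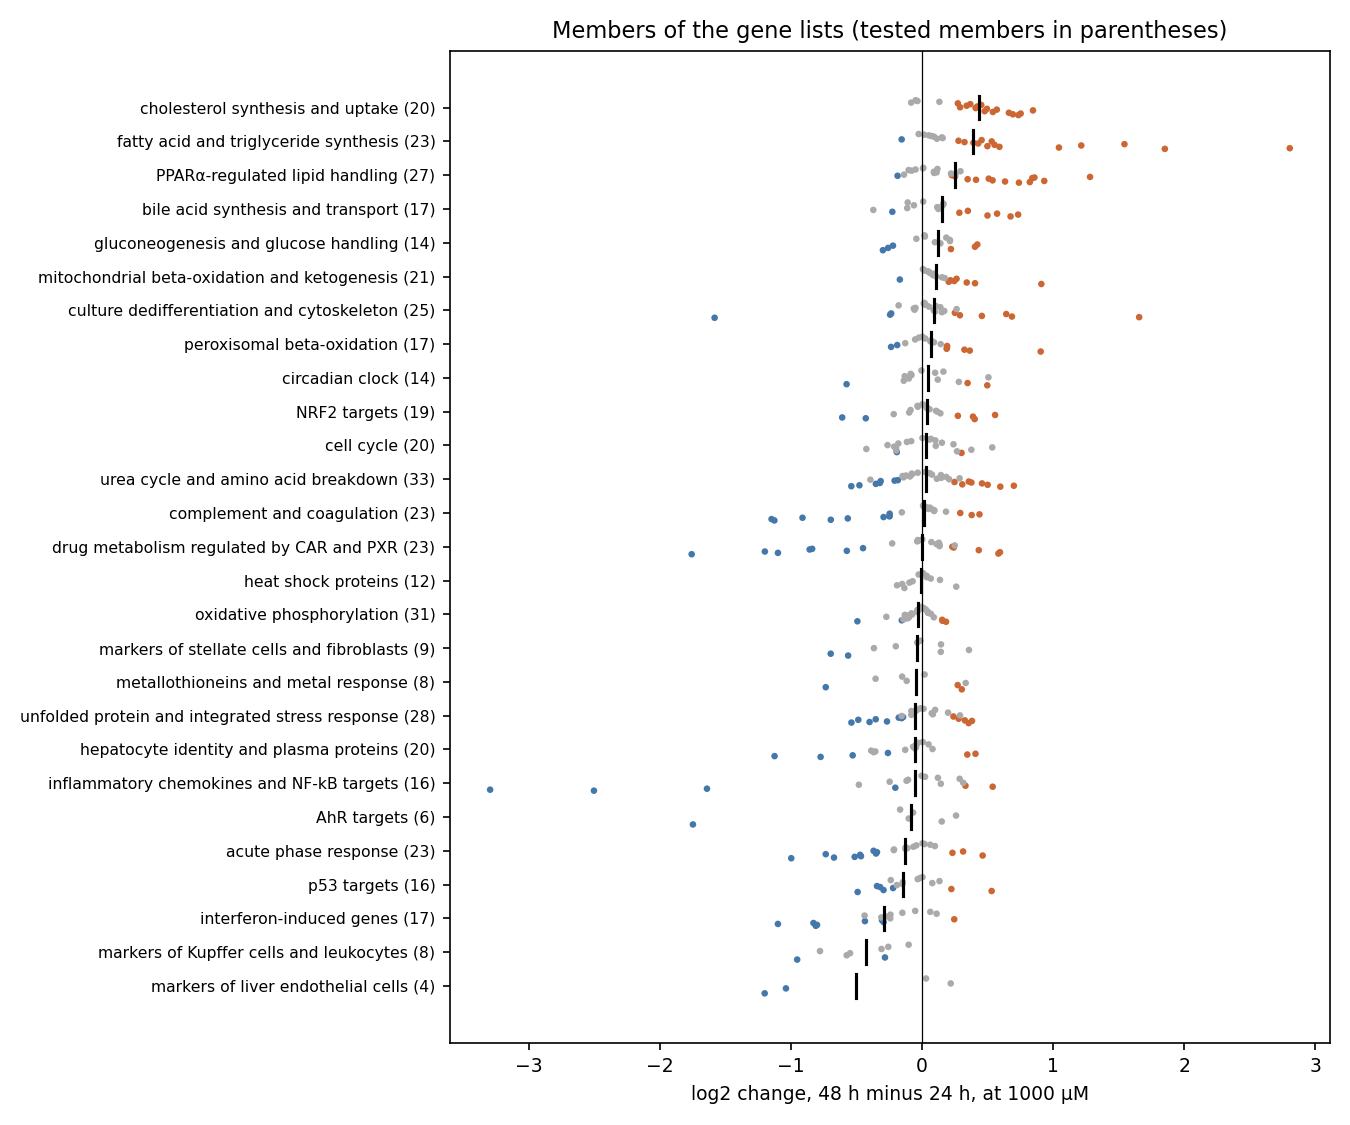
Log2 change from 24 to 48 h at 1000 µM for the tested members of 27 gene lists, 1 point per gene; members called higher are orange, called lower blue, not called grey, and the black bar is the list's median. Medians run from 0.44 for cholesterol synthesis to -0.50 for endothelial markers.

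Bile acid genes and amino acid genes gave rises and falls of moderate size. In bile acid synthesis and transport 6 of 17 rose (35.3%, against 10.8% of all genes), 1 fell (5.88%, against 8.71%) and 10 did not pass. The median was 0.15. Cyp8b1, the sterol 12-alpha-hydroxylase, read 12.66, 12.68, 12.63, 12.72 and 12.76 at 24 h and 13.34, 13.37, 13.37, 13.22 and 13.52 at 48 h, a rise of 0.68 ± 0.06 (limma adjusted p = 5.97e-07) without overlap. Slco1b2, an uptake transporter for bile acids and drugs, rose by 0.73 ± 0.10 (limma adjusted p = 0.000103), and Slc27a5, a bile acid-CoA ligase, by 0.50 ± 0.06 (limma adjusted p = 1.74e-05). Cyp7a1, the first enzyme of bile acid synthesis from cholesterol, gave 0.16 ± 0.14 and did not pass (limma adjusted p = 0.453). Among 33 urea cycle and amino acid genes 8 rose (24.2%) and 7 fell (21.2%), with a median of 0.03. Mat1a, which makes S-adenosylmethionine in liver, rose by 0.70 ± 0.08 (limma adjusted p = 2.19e-05), Aldh4a1 of proline breakdown rose by 0.60 ± 0.07 (limma adjusted p = 1.38e-05), and Cth, which makes cysteine, fell by 0.54 (SE 0.06, limma adjusted p = 1.76e-05). Of 14 gluconeogenesis and glucose genes 3 rose and 3 fell (21.4% each way), with a median of 0.12. Gys2, liver glycogen synthase, rose by 0.22 ± 0.05 and the transaminases Gpt and Got1 fell by 0.30 and 0.26. With array medians centred 1 rose and 1 fell, and the calls of Gys2 and Got1 were lost. The actin covariate left 4 rises and 0 falls among the bile acid genes and 0 rises and 2 falls among the glucose genes.

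Drug-metabolizing enzymes were split between falls and rises. Of 23 tested genes on the drug metabolism list named for the xenobiotic receptors CAR and PXR, 5 rose (21.7%), 7 fell (30.4%) and 11 did not pass. The list includes sex-typed P450s such as Cyp2c13, and control of each member by these receptors was not tested. Of all genes 10.8% rose and 8.71% fell. The list's median of 0.00 was close to that of all genes. Cyp2c13, a male-type P450, read 12.66, 12.60, 12.62, 12.56 and 12.60 at 24 h and 10.68, 10.65, 10.85, 11.14 and 10.92 at 48 h. The gap between times was many times the spread, with a change of -1.76 (SE 0.08, limma adjusted p = 4.83e-10); its probe set is of the type shared between transcripts. Cyp2c7, a related P450, fell by 1.10 (SE 0.10, limma adjusted p = 1.68e-06), and Ces2c, a carboxylesterase, rose by 0.58 ± 0.05 (limma adjusted p = 1.11e-06). Cyp1a2, a P450 under the aryl hydrocarbon receptor (AhR) that is highly expressed in liver, read 13.47, 13.52, 13.59, 13.51 and 13.49 at 24 h and 11.67, 11.94, 11.73, 11.77 and 11.74 at 48 h. It fell by 1.75 (SE 0.06, limma adjusted p = 1.64e-11), and was the one called gene among 6 AhR targets (19.5% of all genes were called). Cyp1a1, the inducible P450 of the same receptor, gave 0.15 ± 0.05 and did not pass (limma adjusted p = 0.0647), while it was called after quantile normalization (0.19) and without 24 h array 3 (0.18). Cyp3a23-3a1, a PXR target, gave -0.03 ± 0.08 (limma adjusted p = 0.837).

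The inflammatory list included Il1rn and Il1r2, which fell the most of the genes named here. Of 16 tested members 2 rose (12.5%, against 10.8% of all genes), 4 fell (25.0%, against 8.71%) and 10 did not pass, with a median of -0.06. Il1rn encodes the secreted antagonist of the interleukin-1 receptor. It read 9.65, 9.64, 9.58, 9.83 and 8.71 at 24 h and 5.68, 6.37, 6.43, 6.05 and 6.39 at 48 h. The 48 h values lay under the low-signal limit of 7.88, where order carries little meaning; the fitted change was -3.30 (SE 0.28, limma adjusted p = 7.25e-07), and against that limit it was at least 3.04-fold. Il1r2 encodes a decoy receptor that binds interleukin-1 without signalling. It read 10.37, 9.84, 10.31, 10.53 and 10.28 at 24 h and 7.12, 8.08, 8.31, 7.79 and 7.52 at 48 h. No array overlapped, and the change of -2.50 (SE 0.21, limma adjusted p = 6.85e-07) was a fall of at least 5.23-fold against the limit. Cxcl1, a neutrophil chemokine, read 10.68, 10.22, 10.47, 10.45 and 10.48 at 24 h and 8.61, 9.02, 9.25, 8.63 and 8.59 at 48 h, a change of -1.64 (SE 0.14, limma adjusted p = 1.04e-06) with no overlap. Without 48 h array 1, a check chosen after seeing the data, 0 members rose and 4 fell, and with the actin covariate 0 rose and 3 fell.

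Interferon-induced genes fell more often than they rose. Of 17 tested members 7 fell (41.2%, against 8.71% of all genes), 1 rose (5.88%, against 10.8%) and 9 did not pass, with a median of -0.29. Without 48 h array 1, 6 fell and 0 rose, and with the actin covariate 4 fell and 0 rose. Isg15, a ubiquitin-like modifier, read 10.65, 10.91, 11.08, 10.84 and 10.88 at 24 h and 9.85, 9.66, 10.01, 9.54 and 9.80 at 48 h. It fell by 1.10 (SE 0.11, limma adjusted p = 2.73e-06). Bst2, the antiviral membrane protein tetherin, fell by 0.81 (SE 0.07, limma adjusted p = 6.55e-07), and Irf7, an interferon regulatory factor, by 0.80 (SE 0.07, limma adjusted p = 1.04e-06). The arrays of the 2 times did not overlap for any of the 3 genes. The list's median was -0.28 in vehicle and -0.42 at 250 µM.

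Members of several families of secreted plasma proteins fell, while albumin did not pass the test. Alb gave 0.05 ± 0.10 (limma adjusted p = 0.796), its 24 h arrays from 15.50 to 16.04 and its 48 h arrays from 15.69 to 16.18. Among the 20 hepatocyte identity genes 2 rose (10%) and 4 fell (20%), with a median of -0.05. Of all genes 10.8% rose and 8.71% fell. Among 23 complement and coagulation genes 3 rose (13%) and 9 fell (39.1%), with a median of 0.01, as over all genes. The 23 acute phase genes gave the same counts, with a median of -0.13. From each of these lists the 3 called genes of smallest p are named, and all of them fell. The actin covariate left 0 rises and 3 falls among the identity genes and 0 rises and 8 falls among the complement genes. Serpina3c, a serine protease inhibitor, read 14.02, 14.01, 14.17, 13.95 and 13.77 at 24 h and 11.38, 11.50, 11.50, 11.33 and 11.87 at 48 h. Serpina6, which encodes corticosteroid-binding globulin, read 11.24, 11.18, 11.41, 11.34 and 11.05 at 24 h and 8.53, 8.71, 8.94, 8.95 and 8.95 at 48 h. Neither overlapped between times: Serpina3c fell by 2.47 (SE 0.09, limma adjusted p = 4.33e-11) and Serpina6 by 2.43 (SE 0.11, limma adjusted p = 4.73e-10). Rup2, a secreted urinary protein, read 15.63, 15.97, 16.04, 15.87 and 15.80 at 24 h and 14.12, 14.16, 14.26, 14.11 and 14.17 at 48 h, a change of -1.70 (SE 0.07, limma adjusted p = 6.12e-11). Its other 3 probe sets, all of the type open to cross-hybridization, fell by 0.68, 1.91 and 2.25. Serpina3l and Spink1l, further protease inhibitors, fell by 1.55 (SE 0.07) and 1.59 (SE 0.08), with limma adjusted p of 7.58e-10 and 2.39e-09.

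The complement proteins C6 and C9, parts of the membrane attack complex, fell by 1.15 (SE 0.10, limma adjusted p = 1.04e-06) and 1.13 (SE 0.08, limma adjusted p = 1.06e-07), and Plg, plasminogen, by 0.70 (SE 0.06, limma adjusted p = 7.28e-07). A2m, the protease trap alpha-2-macroglobulin, read 15.23, 15.38, 15.58, 15.41 and 15.57 at 24 h and 14.39, 14.47, 14.15, 14.70 and 14.47 at 48 h. Its fall was 1.00 (SE 0.09, limma adjusted p = 1.04e-06) with no overlap. Apcs, the serum amyloid P component, fell by 0.67 (SE 0.07, limma adjusted p = 1.22e-05), and Serpina3n, an acute phase antichymotrypsin, by 0.51 (SE 0.06, limma adjusted p = 1.68e-05). Of the identity genes, Apoa2, an HDL apolipoprotein, fell by 1.13 (SE 0.07, limma adjusted p = 2.37e-08), Vtn, vitronectin, by 0.77 (SE 0.05, limma adjusted p = 2.37e-08) and Ahsg, the plasma carrier fetuin-A, by 0.53 (SE 0.07, limma adjusted p = 6.76e-05). For each of these 3 genes all 48 h arrays were below all 24 h arrays.

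**Figure D3:**
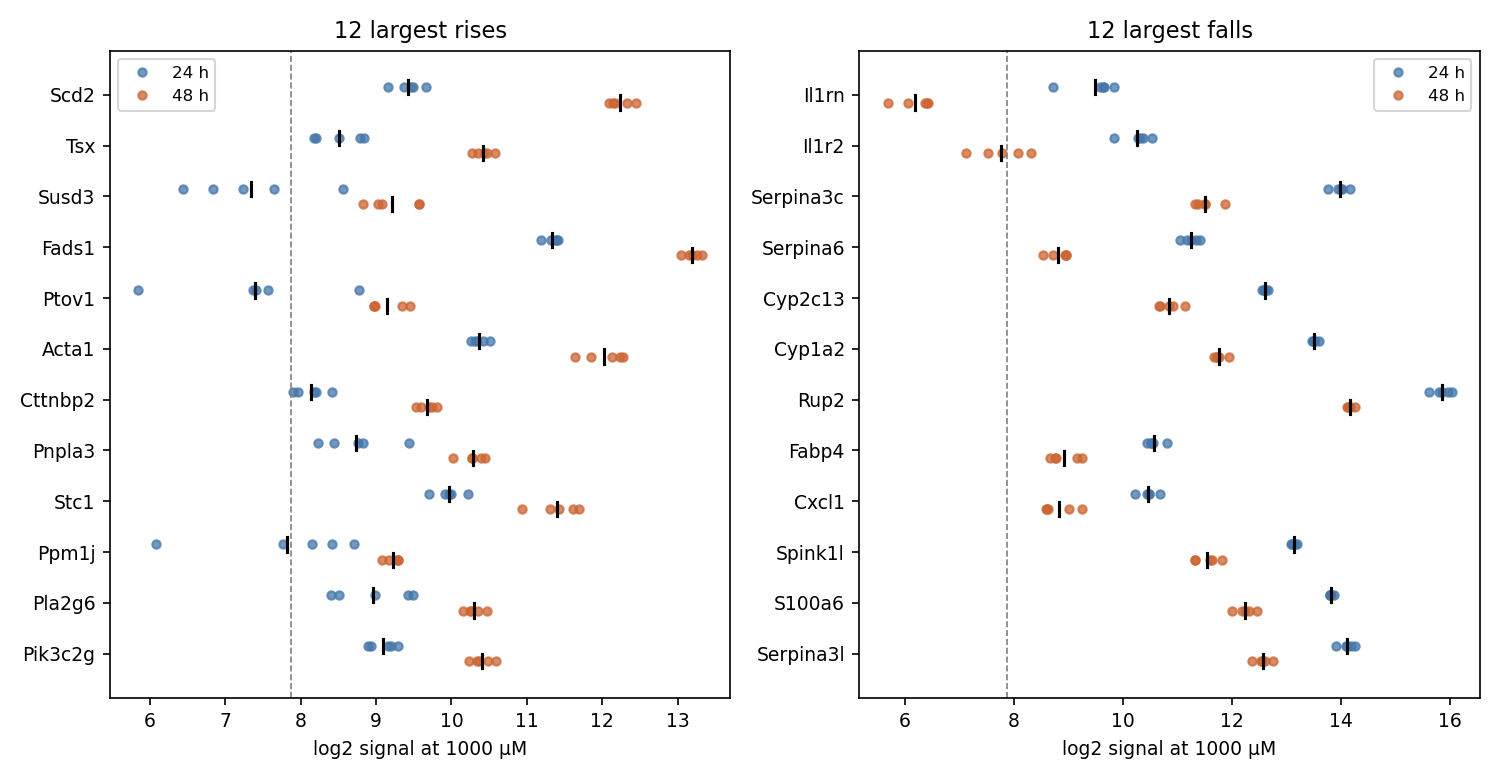
Log2 signal of each array at 1000 µM for the 12 largest rises and 12 largest falls; blue points are the 5 arrays of 24 h, orange points the 5 of 48 h, black bars the means, and the dashed line the low-signal limit of 7.88. The times do not overlap for any of the 24 genes, which their choice required, while Susd3, Ptov1 and Ppm1j at 24 h and Il1rn and Il1r2 at 48 h have means under the limit.

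Other large changes fell outside these pathways. Tsx, an X-linked gene first known from testis, read 8.84, 8.18, 8.78, 8.51 and 8.20 at 24 h and 10.27, 10.48, 10.58, 10.43 and 10.35 at 48 h, a rise of 1.92 ± 0.15 (limma adjusted p = 2.61e-07). Acta1, skeletal muscle actin, read 10.52, 10.33, 10.31, 10.26 and 10.42 at 24 h and 11.63, 12.13, 12.27, 12.23 and 11.86 at 48 h, a rise of 1.66 ± 0.11 (limma adjusted p = 3.93e-08). Stc1, the secreted hormone stanniocalcin, rose by 1.43 ± 0.13 (limma adjusted p = 1.53e-06), and its second probe set gave 1.41 ± 0.12. Cttnbp2, a cortactin-binding protein, Pla2g6, a calcium-independent phospholipase, and Pik3c2g, a class II phosphoinositide kinase, rose by 1.54, 1.33 and 1.31. Susd3, Ptov1 and Ppm1j had mean 24 h signals of 7.35, 7.39 and 7.82, under the low-signal limit, and against it rose at least 2.53-fold, 2.41-fold and 2.54-fold. Fabp4, a fatty acid binding protein of adipocytes and macrophages, read 10.52, 10.81, 10.52, 10.55 and 10.45 at 24 h and 8.75, 8.67, 9.26, 9.16 and 8.78 at 48 h, a change of -1.65 (SE 0.13, limma adjusted p = 4.3e-07). S100a6, a calcium-binding protein, read 13.83, 13.81, 13.88, 13.80 and 13.79 at 24 h and 12.18, 12.31, 12.46, 12.24 and 12.01 at 48 h. It fell by 1.58 (SE 0.07, limma adjusted p = 2.29e-10), against the direction of most called members of its list. Of 25 dedifferentiation and cytoskeleton genes 6 rose (24%, against 10.8% of all genes) and 3 fell (12%, against 8.71%). The median was 0.09, and Tagln2, transgelin-2, was among the rises with 0.69 ± 0.08. Ccn2, a matricellular growth factor of the same list, gave 0.17 ± 0.10 and did not pass (limma adjusted p = 0.279).

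Stress and growth genes showed small movements. Of 28 unfolded protein and integrated stress response genes 5 rose (17.9%, against 10.8% of all genes) and 8 fell (28.6%, against 8.71%). The median was -0.05. With array medians centred 3 rose and 5 fell, and with the actin covariate 2 rose and 4 fell. The chaperone-related Creld2 and the stress transcription factor Ddit3 fell by 0.54 (SE 0.07, limma adjusted p = 0.000123) and 0.40 (SE 0.06, limma adjusted p = 0.000399), while Psat1, an enzyme of serine synthesis, rose by 0.36 ± 0.05. Of 16 p53 targets 2 rose (12.5%, against 10.8% of all genes) and 5 fell (31.2%, against 8.71%), with a median of -0.15. Gadd45a, a growth arrest gene, fell by 0.49 (SE 0.07, limma adjusted p = 0.000115). Sesn1, a sestrin, rose by 0.53 ± 0.08, and Fas, a death receptor, fell by 0.29. With array medians centred 1 p53 target rose and 1 fell, likewise with the actin covariate, and without 48 h array 1, 2 rose and 3 fell. Among 19 NRF2 targets 4 rose (21.1%) and 2 fell (10.5%), against 10.8% and 8.71% of all genes, with a median of 0.04. Gsta4, a glutathione transferase, rose by 0.40 ± 0.04, and Srxn1, sulfiredoxin, and Akr1b8, an aldose reductase relative, fell by 0.43 and 0.61. The actin covariate left 2 rises and 2 falls among them, as did centred array medians. Of 12 heat shock genes 0 were called by limma (against 19.5% of all genes), with 2 at an unadjusted p under 0.05, and 1 rose after quantile normalization. Of 20 cell cycle genes (5.00% called in each direction, against 10.8% and 8.71% of all genes) 1 rose and 1 fell. The kinetochore gene Spc24 rose (0.30 ± 0.05). Pcna, the replication clamp, fell (-0.19 ± 0.05), and was -0.17 and not called without 24 h array 3. The actin covariate left 1 rise and 0 falls on this list. Of 31 oxidative phosphorylation genes 3 rose (9.68%) and 2 fell (6.45%), against the same 10.8% and 8.71%, with a median of -0.03 (0.00 after quantile normalization). Uqcrc1 of complex III gave 0.18 ± 0.05, Atp5f1b of the ATP synthase 0.16 ± 0.05 (0.14 to 0.16 and not called without 24 h array 4 or 5 or 48 h array 1, 3, 4 or 5) and Ndufa5 of complex I -0.49 ± 0.13; with medians centred 0 rose and 1 fell, without 48 h array 1, 1 rose and 1 fell, and with the actin covariate 0 were called.

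Clock and metal genes were few in number. Of 14 clock genes 2 rose (14.3%, against 10.8% of all genes) and 1 fell (7.14%, against 8.71%). The repressor Nr1d2 rose by 0.50 ± 0.08, and Per1, a core clock gene, fell by 0.58 (SE 0.13). The output factor Tef rose by 0.35 ± 0.10, a call lost on leaving out 24 h array 2, 3 or 4 or 48 h array 1 or 5 (0.29 to 0.34). The labels put the 2 harvests 24 h apart and give no clock hour. With the actin covariate 1 clock gene rose and 0 fell. Of 8 metal response genes 2 rose (25%) and 1 fell (12.5%), against the same 10.8% and 8.71%. The actin covariate left 1 rise and 1 fall. The iron exporter Slc40a1 rose by 0.30 ± 0.05, and Hamp, the iron hormone hepcidin, fell by 0.73 (SE 0.13). The zinc and iron transporter Slc39a14 rose by 0.27 ± 0.08 (0.23 to 0.26 and not called without 24 h array 2 or 4 or 48 h array 1 or 5). A second probe set of Slc40a1, Slc39a14, Tef and Sesn1 had the opposite sign and did not pass in each case.

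Summed signals of Kupffer, endothelial and stellate cell markers were lower at 48 h. The stellate sum followed 1 gene, Lox, and the endothelial sum held a large fall of its brightest marker, Fcgr2b. In bulk RNA, fewer cells of a type and less RNA per cell cannot be told apart. The summed signal of 13 measured Kupffer cell and leukocyte markers went from 11800 to 14830 on the 24 h arrays to 10050 to 10960 on the 48 h arrays, with no overlap. That of 10 endothelial markers went from a span of 3452 to 4063 to one of 2455 to 3149. That of 15 stellate cell and fibroblast markers went from a median of 26070 to 21010, but without Lox, an omission chosen after seeing the data, the other 14 spanned 9232 to 10420 at 24 h and 9589 to 11140 at 48 h (medians 10240 and 9959), which overlap. Lox itself went from a median signal of 15700 to 11420. The median change of the 9 tested stellate markers was -0.04, and Vim, Acta2 and Rgs5 had higher means at 48 h (12.21, 9.95 and 8.78) than at 24 h (12.06, 9.80 and 8.42). Defining markers of these types were low: 5 of 13, 6 of 10 and 6 of 15 lay under the low-signal limit, among them Cd163 and Ptprc, Stab2 and Vwf, and Pdgfrb and Lrat. Of the tested members 2 of 8 Kupffer (25%), 2 of 4 endothelial (50%) and 2 of 9 stellate markers (22.2%) fell and 0 rose. Of all genes 8.71% fell. Fcgr2b, an Fc receptor of liver endothelium, read 10.71, 10.53, 10.45, 10.57 and 10.56 at 24 h and 9.23, 9.56, 9.50, 9.27 and 9.25 at 48 h, a change of -1.20 (SE 0.10, limma adjusted p = 7.7e-07). It was the brightest of the 10 endothelial markers, and their sum without it was not examined. Kdr and Eng, the tested endothelial markers not called, had higher means at 48 h (8.84 and 9.24) than at 24 h (8.62 and 9.21). Of the endothelial markers under the limit, Stab1, Tek and Vwf had higher means at 48 h, and Pecam1, Stab2 and Tie1 lower ones. Ctss, a macrophage protease, fell by 0.95 (SE 0.13, limma adjusted p = 0.000103), Lyve1, an endothelial hyaluronan receptor, by 1.04 (SE 0.23), at least 1.79-fold against the limit, Lox, a collagen cross-linking enzyme, by 0.56 (SE 0.08), Timp1, a protease inhibitor, by 0.70 (SE 0.19), and Lyz2, a lysozyme, by 0.28 (SE 0.09). The fall of Lyz2 was not called on leaving out 24 h array 1, 3, 4 or 5 or 48 h array 1, 3 or 4 (-0.24 to -0.28). In vehicle the Kupffer and endothelial medians were -0.46 and -0.81, against -0.43 and -0.50 at 1000 µM, and the stellate sum had medians of 38500 at 24 h and 38740 at 48 h. With the actin covariate 2 Kupffer, 1 endothelial and 1 stellate marker fell. Epcam, the only tested cholangiocyte marker, rose by 0.19 ± 0.05, and 4 of the 5 measured markers lay under the limit. Fabp4, Il1rn, Il1r2, Cxcl1 and the interferon-induced genes are also expressed by such cells; the part of these cells in their falls was not tested.

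Part of the second-day change at 1000 µM was also seen without the compound, and the measured overlap differed with the vehicle arrays and covariate used. In a model of all 30 arrays, 1897 genes changed with time at 1000 µM (18.0%), 2963 in vehicle (28.1%) and 1408 at 250 µM (13.4%). Of the 1897 genes, 1243 changed the same way in vehicle, which is 65.5% of them and 42.0% of the vehicle calls, and 9 changed the opposite way. At 250 µM 904 changed the same way, 47.7% of the 1897 and 64.2% of the 250 µM calls, and 0 the opposite way. These pairs of comparisons share no array. Over the 10528 genes the time changes correlated across genes with Pearson's r of 0.603 and Spearman's rho of 0.582 against vehicle, and 0.610 and 0.531 against 250 µM; genes are not independent replicates. The mean actin ratio in vehicle was 1.14 ± 0.084 at 24 h and 1.72 ± 0.494 at 48 h (SD, n = 5), with 4 of the 5 arrays of 48 h raised. That difference was not tested. At 250 µM the means were 1.16 and 1.15. Without those 4 arrays, which leaves 1 vehicle array at 48 h, the time changes at 1000 µM and in vehicle correlated with r of 0.339 and rho of 0.282. A group of 1 array carries more noise, which by itself lowers a correlation and the number of calls. What the raised ratios added to the overlap therefore cannot be told from this check. With the ratio as covariate 491 changed the same way, 28.8% of 1705 calls at 1000 µM and 65.5% of 750 in vehicle, with r of 0.547. Both of these checks were chosen after seeing the data. The changes in vehicle and at 250 µM were -2.43 and -2.34 for Serpina3c, -2.52 and -2.24 for Serpina6 and -1.79 and -1.83 for Cyp2c13.

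**Figure D4:**
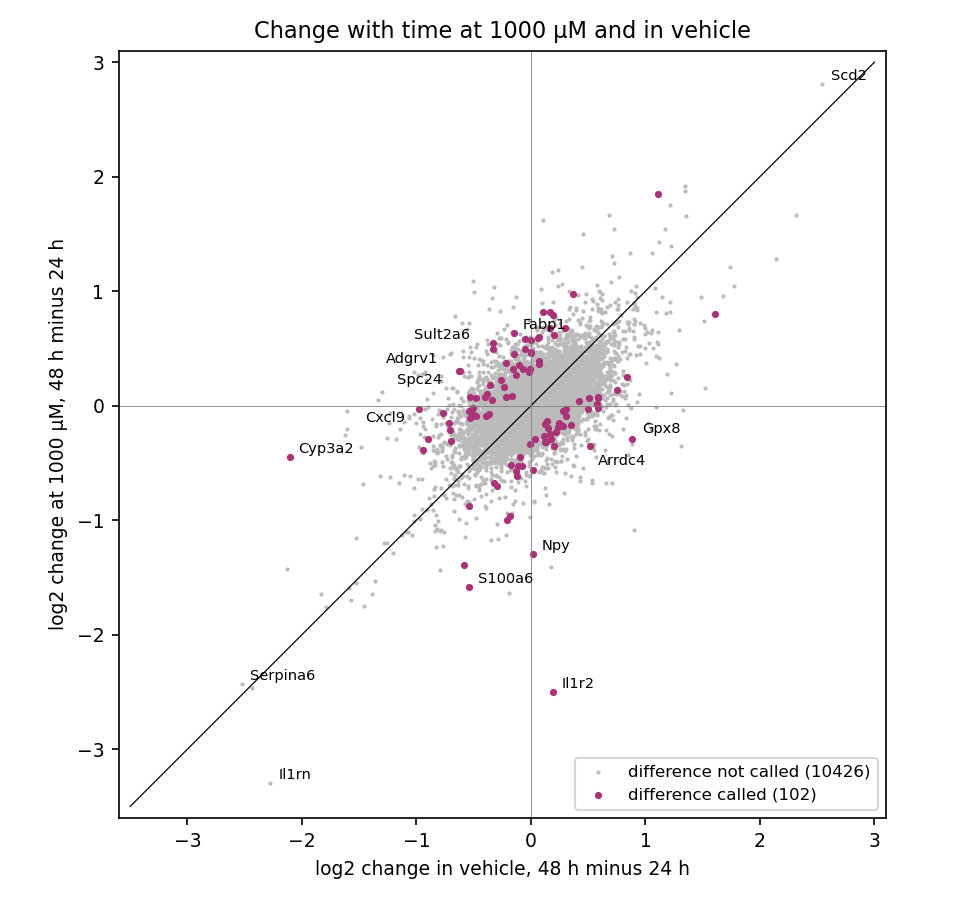
Log2 change from 24 to 48 h at 1000 µM (vertical) against that in vehicle (horizontal), 1 point per gene, with the line of equality; the 102 genes whose changes differ are purple. Scd2 and Serpina6 lie near the line, while Il1r2, Npy and S100a6 lie below it and Cyp3a2 above it.

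The time change itself differed between 1000 µM and vehicle for 102 genes (0.969%), more positive at 1000 µM in 55 and more negative in 47, with 1206 genes at an unadjusted p under 0.05. Among the 102, 30 rose at 1000 µM by more than in vehicle, 27 fell by more, 5 fell by less, 2 rose by less and 38 did not change with time at 1000 µM by the test. The 4 vehicle arrays of raised actin ratio enter this comparison too. Without them 38 genes were called, 18 of them among the 102, and all 102 kept their sign. That check rests on vehicle 48 h array 4 alone, whose own omission moved the count of 102 the most (322) and which stood apart from its group for Arrdc4. Called without those arrays, with the actin ratio as covariate and with medians centred were 8 of the 102: Cyp3a2, Fabp1, Spc24, Upb1 (the last enzyme of pyrimidine breakdown), Il1r2, Npy, Pglyrp1 (a peptidoglycan-binding protein) and S100a6, which were listed after their values were seen. Leaving out 1 array at a time gave 63 to 322 genes; the count moved by over 1.5 times without vehicle 24 h array 1 (203) or 4 (63), vehicle 48 h array 3 (64) or 4 (322), 1000 µM 24 h array 3 (65), or 1000 µM 48 h array 3 (64) or 5 (65).

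Cyp3a2, a male-type P450, fell less at 1000 µM than in vehicle. It read 12.62, 12.77, 12.81, 12.73 and 12.47 at 24 h and 12.26, 12.13, 12.04, 12.41 and 12.32 at 48 h at 1000 µM, a change of -0.45 (SE 0.08, limma adjusted p = 0.000717). Vehicle arrays read 12.52, 12.59, 12.87, 12.58 and 12.46 at 24 h and 10.47, 10.61, 10.26, 10.34 and 10.82 at 48 h, a change of -2.11 (SE 0.09). The difference was 1.66 ± 0.12 and 1.82 ± 0.15 without the 4 vehicle arrays. Fabp1 rose at 1000 µM while its vehicle arrays went from 12.99, 13.17, 12.97, 13.10 and 12.98 to 12.96, 12.86, 12.88, 12.91 and 12.87, a difference of 0.78 ± 0.07 (0.77 ± 0.10 without the 4). Spc24 rose by 0.30 at 1000 µM, from 13.16, 13.18, 13.15, 13.15 and 13.05 to 13.47, 13.44, 13.48, 13.40 and 13.42. In vehicle it was far lower, 10.42 to 11.10 at 24 h and 9.96 to 10.58 at 48 h, and the difference in change was 0.93 ± 0.13 (1.06 ± 0.16 without the 4). Aqp7 and Aldh4a1 also rose more than in vehicle, by 0.66 ± 0.10 and 0.53 ± 0.11, and Cyp4a1 rose less, by -0.59 ± 0.11; without the 4 arrays these were 0.48, 0.66 and -0.41, of which that of Aldh4a1 was called. The levels of Cyp4a1 differed widely: in vehicle it read 12.69 to 13.13 at 24 h and 13.53 to 13.94 at 48 h, while at 1000 µM its means of 15.59 and 15.84 ranked 80 and 28 from the top of the 10528 genes, whose brightest averaged 16.33 and 16.29. A limit of the signal scale near its top was not tested, so the smaller log2 rise is given as a value only.

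Il1r2, Npy and S100a6 fell at 1000 µM and not, or less, in vehicle. Il1r2 in vehicle read 10.65, 11.03, 11.39, 10.56 and 10.79 at 24 h and 11.13, 11.13, 10.91, 11.05 and 11.14 at 48 h. Its levels overlapped there, and the difference in change was -2.70 ± 0.38 (-2.68 ± 0.58 without the 4 arrays). Npy encodes neuropeptide Y, a signalling peptide best known from neurons. At 1000 µM it read 11.12, 11.30, 11.49, 11.12 and 11.51 at 24 h and 9.83, 9.95, 10.16, 10.08 and 10.05 at 48 h, a change of -1.29 (SE 0.10, limma adjusted p = 2.24e-07). Vehicle arrays of Npy lay between 11.03 and 12.18 (median 11.81) at 24 h and between 11.56 and 12.12 (median 11.70) at 48 h, so the times overlapped; the difference was -1.31 ± 0.20 (-1.66 ± 0.28 without the 4). S100a6 fell by 0.54 in vehicle (SE 0.08), from 14.27 to 14.46 at 24 h to 13.63 to 14.17 at 48 h, a difference of -1.05 ± 0.11 (-1.37 ± 0.13 without the 4). Of the remaining genes of largest difference, Sult2a6, a sulfotransferase, gave 0.88 ± 0.16, Adgrv1, an adhesion receptor, 0.92 ± 0.18, Cxcl9, a chemokine, 0.94 ± 0.15, Gpx8, a peroxidase of the endoplasmic reticulum, -1.17 ± 0.26 and Arrdc4, an arrestin-domain protein, -0.87 ± 0.12. None of these 5 was called without the 4 arrays (0.72, 0.54, 0.47, -1.12 and -0.54), and a second probe set of Cxcl9 rose at 1000 µM (0.34, limma adjusted p = 0.00314) where the one used gave -0.03.

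**Figure D5:**
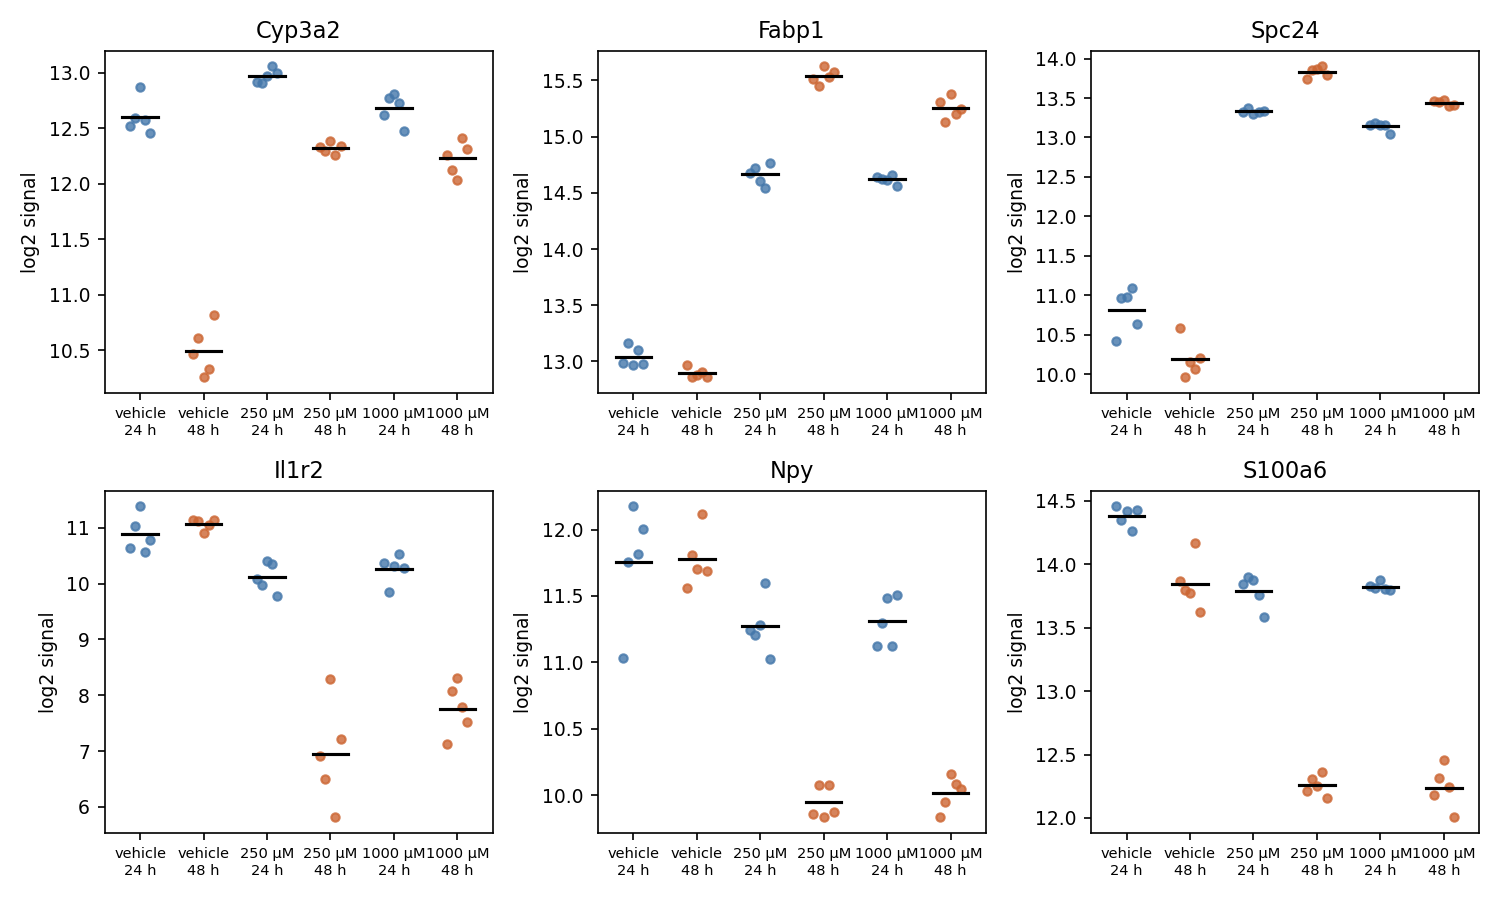
Log2 signal of each of the 30 arrays for 6 genes whose time change differed between 1000 µM and vehicle; blue points are 24 h, orange points 48 h and black bars group means of 5 arrays. Cyp3a2 falls in vehicle to about 10.50 while 1000 µM stays at 12.23, and Il1r2, Npy and S100a6 fall at both doses.

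Between 1000 and 250 µM the second day differed for 2 genes (0.0190%; 768 at an unadjusted p under 0.05, limma, 30 arrays). Isg15 changed by -1.10 at 1000 µM and by -2.16 at 250 µM, where its arrays read 11.77, 11.93, 11.71, 11.35 and 11.39 at 24 h and 9.40, 9.98, 9.37, 9.25 and 9.35 at 48 h. Ints7, a subunit of the Integrator complex, was higher by 0.67 ± 0.22 at 1000 µM (limma adjusted p = 0.0478, a call lost with array medians centred and on leaving out 24 h array 2, 3 or 4 or 48 h array 1, 2, 3 or 5, 0.53 to 0.68) and fell by 1.51 (SE 0.26) at 250 µM. Its other probe set gave -0.05 at 1000 µM. The differences were 1.06 ± 0.19 and 2.18 ± 0.37, and leaving out 1 array at a time gave 0 to 3 such genes. A difference under the threshold does not show that the doses act alike.

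Genes that had responded to the compound on the first day were followed in arrays that did not choose them, those of 250 µM and vehicle at 24 h. Of the 875 genes higher at 250 µM than in vehicle at 24 h (8.31% of all), 190 rose (21.7%, against 10.8% of all genes) and 107 fell (12.2%, against 8.71%) from 24 to 48 h at 1000 µM, with a median change of 0.04 against 0.01. Of the 106 that were higher by at least 2-fold, 40 rose (37.7%) and 11 fell (10.4%), with a median of 0.12. Of the 1155 genes lower at 250 µM at 24 h, 239 rose (20.7%) and 152 fell (13.2%), median 0.05, and of the 54 lower by at least 2-fold, 18 rose (33.3%) and 6 fell (11.1%), median 0.17. Rises made up 55.4% of the calls over all genes.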

How the data were processed

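The authors deposited 1 intensity signal per probe set and array, on a linear scale, and the submitters' processing notes name MAS5 without a version. With 2% of values trimmed from both ends, array means spanned 1500.6 to 1500.7, so the deposited intensities had been scaled to a common average. Such scaling hides a change in total RNA. Signals were taken to log2 after adding 1, and array medians lay between 8.44 and 8.79, so no further scaling was applied. Of 31099 probe sets, 57 controls and the 40% with the lowest mean (limit 7.88, signal 234) were left out, and the probe set with the highest mean stood for each of 10528 genes. Names came from the platform table, where 9780 probe sets had no gene and 436 several. Probe sets of Pla2g6, Cyp2c13, Cyp51 and Fas are of the type shared between transcripts. The number of arrays limits the precision, and detection calls were not used.

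limma 3.58.1 in R 4.3.3 fitted the 10 arrays (8 residual degrees of freedom, variances moderated with a trend); differences from vehicle and 250 µM came from all 30 arrays (24 degrees of freedom), and the procedure was tested on simulated data. The text names the 12 largest rises and 12 largest falls among called genes whose times did not overlap and whose higher mean was at least 1 above the limit, up to 3 called members of each of 28 gene lists, the 5 largest differences each way from the other groups and 12 further genes. The members and lists were chosen with earlier results of these data known. Alternatives covered centring, quantile normalization, filters, pseudocount, probe sets, trend, arrays in the fit, the actin ratio and each array left out. The list counts without 48 h array 1 or with the actin covariate, the overlaps with vehicle in other settings, the stellate sum without Lox, the block of running numbers and the shown promoters of Fads1 and Pnpla3 were chosen after seeing the data.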

Additional observations from a re-analysis of the deposited data

Results flagged for a closer look

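Among 264 groups of 5 arrays of the named genes and 3 quality measures, 19 held a highest or lowest array set apart from the other 4 by a gap of more than 0.71 of the group's range (Dixon's test). Chance alone gives about 1 in 20. At 1000 µM and 24 h, array 5 was lowest for Il1rn (8.71), Slc27a5 (12.43) and Spc24 (13.05) and highest for C6 (10.71). Array 1 of the same group was lowest for Vtn (15.03), Cyp3a23-3a1 (15.77) and Alb (15.50). Array 2 was highest for Fabp4 (10.81) and Aldh4a1 (11.37) and lowest for Lyz2 (12.66), and array 3 had the highest beta-actin ratio (1.30). At 1000 µM and 48 h, array 2 was lowest for Per1 (8.78), array 3 for Arrdc4 (10.58) and array 5 for Gpx8 (8.20), and array 4 was highest for Lyve1 (8.46). Elsewhere Isg15 was highest on array 2 of 250 µM at 48 h (9.98). Arrdc4 stood apart in 3 more groups, on vehicle array 4 at 24 h (11.81) and at 48 h (11.98) and on array 3 of 250 µM at 24 h (11.16).

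The time change of 23 named genes differed between groups in limma's model of 30 arrays. Against vehicle it was more positive at 1000 µM for Cyp3a2 (1.66), Cxcl9 (0.94), Spc24 (0.93), Adgrv1 (0.92), Sult2a6 (0.88), Fabp1 (0.78), Fads1 (0.74), Aqp7 (0.66), Aldh4a1 (0.53), Cyp8b1 (0.51) and Acot8 (0.48). It was more negative for Il1r2 (-2.70), Npy (-1.31), Gpx8 (-1.17), S100a6 (-1.05), Arrdc4 (-0.87), A2m (-0.78), Cyp4a1 (-0.59), Ahsg (-0.45), Apcs (-0.35) and Serpina3n (-0.34). Against 250 µM it was more positive for Ints7 (2.18) and Isg15 (1.06). Without the 4 vehicle arrays of raised actin ratio, Cyp8b1 (0.62), A2m (-0.59), Ahsg (-0.50), Apcs (-0.41) and Serpina3n (-0.38) were not called, nor were the 7 genes given as such in the text above.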

How the results depend on the processing

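The 2054 calls at 1000 µM (1137 rises, 917 falls) became 1136 (668 and 468) with array medians centred, 1132 of them shared, and 853 (477 and 376) with the actin ratio as covariate; quantile normalization, other filters, a pseudocount of 32, no variance trend, every probe set on its own, all 30 or the 20 treated arrays gave 1623 to 2522. Leaving out 1 array gave 1594 to 2353 calls, 854 to 1307 rises and 738 to 1046 falls. The 102 differences from vehicle became 16 with medians centred, 158 with quantile normalization, 65 without the trend, 36 with only the 20 arrays of the 4 groups, 38 without the 4 vehicle arrays and 63 to 322 with 1 array left out. Their share more positive at 1000 µM, 53.9%, was 37.5% with medians centred, 66.2% of 74 with the actin ratio as covariate, and 73.7% without the 4 arrays. The 2 differences from 250 µM became 1 with medians centred, 1 with quantile normalization, 0 without the trend and 0 with only 20 arrays (391, 637, 741 and 1042 genes at an unadjusted p under 0.05), and 0 to 3 with 1 array left out. The causes were not tested. The Gapdh 3′ to 5′ difference of 0.02 was -0.001 after quantile normalization and 0.01 to 0.03 with 1 array left out. That of beta-actin was 0.11 to 0.20 (exact permutation test, adjusted p from 0.0476 to 0.31), and that of array medians -0.0387 to 0.0275. None of the 97 called named genes reversed in the alternatives run; 21 lost the call in at least 1 of the changes of method, 9 with 1 array left out and 2 with the block described next. The labels give no replicate numbers, but running numbers in the titles place 1 array of each group in each of 5 sets. With the set as replicate block, 1869 genes were called (1038 rises, 831 falls), 124 differed from vehicle and 2 from 250 µM; deviations of same-set arrays at 1000 µM correlated at -0.0845 to 0.10, and 1 of 5 correlated best with its own set, so the sets were not taken as pairs. Low signal limits genes near 7.88.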
